A study of Arabidopsis thaliana with 4 samples.

Results

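AT4G37240 encodes a small plant-specific protein with a PADRE domain, and 7 related loci, AT2G23690, AT5G66580, AT3G50800, AT1G06980, AT2G30230, AT1G76600 and AT1G21010, were examined with it. AT4G37240 was chosen by its GR24 minus mock difference, since its transcript was higher after treatment with a strigolactone analogue in these same arrays, and the others because their proteins are related to it. A gene was measured where a probe set on the array was annotated to that gene alone, and the brightest such probe set was used. This held for 5 of the 8 genes, against 13333 genes on the whole array. AT5G66580, AT3G50800 and AT2G30230 had no such probe set and are not analysed here. The probe table does not list 8730 of the 22746 probe sets tested. A gene counted here or below as not measured may therefore still have a probe set on the array.

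RNA came from whole 14-day-old Arabidopsis thaliana seedlings of the Col strain, and every seedling carried max3, a mutation in a carotenoid cleavage dioxygenase of strigolactone synthesis. The mock group (2 arrays) received the solvent DMSO for 90 min, and the other group (2 arrays) received GR24, a synthetic strigolactone, at 1 µM for the same time. Each group holds replicate numbers 1 and 2, and the series description says that the 2 analyses were independent from seedling preparation on. A shared number was read as a shared preparation, which the labels do not state, and GR24 was compared with mock within each number. Wild-type seedlings are not analysed here, so every value describes seedlings that lack their own strigolactones. The level of MAX3 itself is not analysed here. Values are log2 expression after RMA, and array medians lay between 7.03 and 7.06. A shoot and a root marker were bright on all arrays. Rubisco activase, RCA, lay between 13.4 and 13.6 and the root beta-glucosidase PYK10 between 13.1 and 13.3. The other measured root markers were dim, EXPA7 between 4.79 and 5.58 and AGL42 between 4.69 and 4.88, and no detection calls were used. In whole seedlings, a lower value from fewer cells of a type cannot be told apart from one due to less RNA per cell.

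PADRE proteins are found in plants and have no known enzymatic activity. Their name joins pathogen and abiotic stress response, cadmium tolerance and a disordered region, because many of the genes respond to fungal infection or to abiotic stress and the proteins carry a stretch predicted to lack a fixed fold. Strigolactones restrain shoot branching. Their perception leads to the destruction of repressor proteins through an F-box protein.

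AT4G37240 had the largest rise with GR24 of the 5 measured genes. Its log2 value was 8.78 in mock replicate 1 and 8.98 in mock replicate 2, against 9.94 in GR24 replicate 1 and 9.87 in GR24 replicate 2. Both GR24 arrays were higher than both mock arrays, and the GR24 arrays lay closer to each other than the mock arrays did. The GR24 minus mock difference was 1.17 within replicate 1 and 0.88 within replicate 2, a mean of 1.03 ± 0.11 (moderated SE, n = 2 pairs) or 2.04-fold. These are the values that chose the gene, so they stand here as a description without a test. By mean difference AT4G37240 ranked 9th from the top among 22746 tested probe sets. A total of 6 other probe sets had at least as large a difference in replicate 1, 23 in replicate 2 and 4 in both. Of those 4, 3 had 1 gene name. Where single arrays were left out of the comparison without pairing, the difference stayed between 0.92 and 1.13, but none of these 4 fits called the gene or any other probe set.

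AT2G23690, the related gene listed next to AT4G37240, also had higher values with GR24 within both pairs, but by far smaller amounts. It read 7.62 and 7.18 in mock replicates 1 and 2, and 7.68 and 7.46 in GR24 replicates 1 and 2. The groups overlapped, because the second GR24 array lay below the first mock array. Its difference was 0.06 in replicate 1 and 0.29 in replicate 2 (mean 0.17 ± 0.11, moderated SE).

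The remaining genes lay below mock in both pairs. AT1G06980 had log2 values of 5.95 and 6.09 with mock and of 5.49 and 5.71 with GR24. Both GR24 arrays were below both mock arrays, so the groups did not overlap. The difference was -0.46 in replicate 1 and -0.38 in replicate 2 (mean -0.42 ± 0.10, moderated SE), and mock was 1.34-fold above GR24. The gene ranked 223rd from the bottom by mean difference among all tested probe sets.

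AT1G76600 gave almost the same GR24 minus mock difference in the 2 pairs, -0.36 in replicate 1 and -0.37 in replicate 2, on levels that were far apart. Its log2 value was 10.42 in mock replicate 1, 10.06 in GR24 replicate 1, 11.43 in mock replicate 2 and 11.05 in GR24 replicate 2. Both replicate 2 arrays were above both replicate 1 arrays, so mock and GR24 overlapped although each pair moved down. AT1G21010 followed the same order at smaller amounts. It read 8.95 and 8.71 with mock and GR24 in replicate 1, and 9.17 and 9.11 in replicate 2. Its differences were -0.24 and -0.06 (mean -0.15 ± 0.10, moderated SE).

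**Figure D1:**
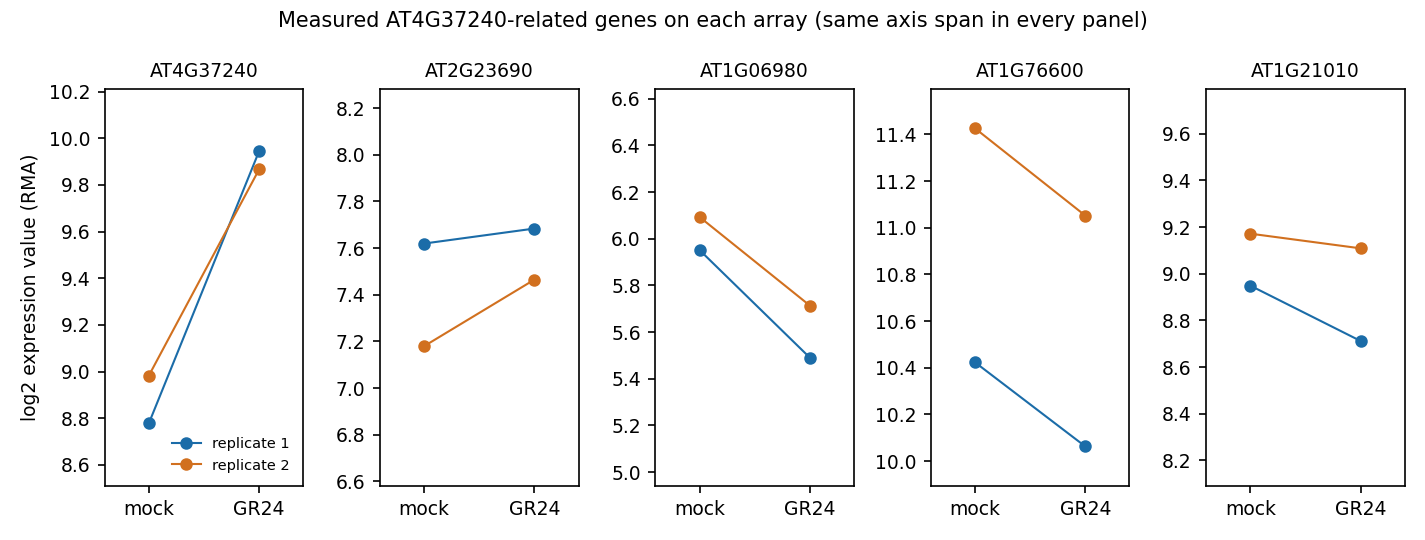
Log2 expression value (vertical axis, RMA) of the 5 measured genes on each array with mock and with GR24 (horizontal axis). Points are single arrays and lines join arrays of the same replicate number. AT4G37240 rises in both pairs, AT1G06980, AT1G76600 and AT1G21010 slope down in both, and the lines of AT1G76600 lie about 1 log2 unit apart.

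The paired fit across all probe sets, limma with the replicate number as a block, called 1 of the 5 measured genes at an adjusted p under 0.05. That gene is AT4G37240, for which this call was the ground of choice. Over all probe sets 0.303% were called, 0.145% higher and 0.158% lower with GR24. With limma's default prior the same gene was called, and 1.24% of all probe sets. Without the block limma called 0 probe sets, with 341 at an unadjusted p under 0.05, and AT4G37240 was then not called either. Mock and GR24 arrays did not overlap for 2 of the 5 genes, AT4G37240 and AT1G06980, against 23.1% of all probe sets (12.9% with GR24 higher and 10.2% with GR24 lower). All 5 genes had the same sign in both pairs, as did 52% of all probe sets. Of the 5 genes 2 lay above 0, as did 54.8% of all probe sets. Their median difference was -0.15, and that of all probe sets was 0.01. The range ran from -0.42 for AT1G06980 to 1.03 for AT4G37240, while the middle 90% of all probe sets lay between -0.23 and 0.22. The set is small, was built around a riser and was listed with these results known, so nothing is read from these counts.

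**Figure D2:**
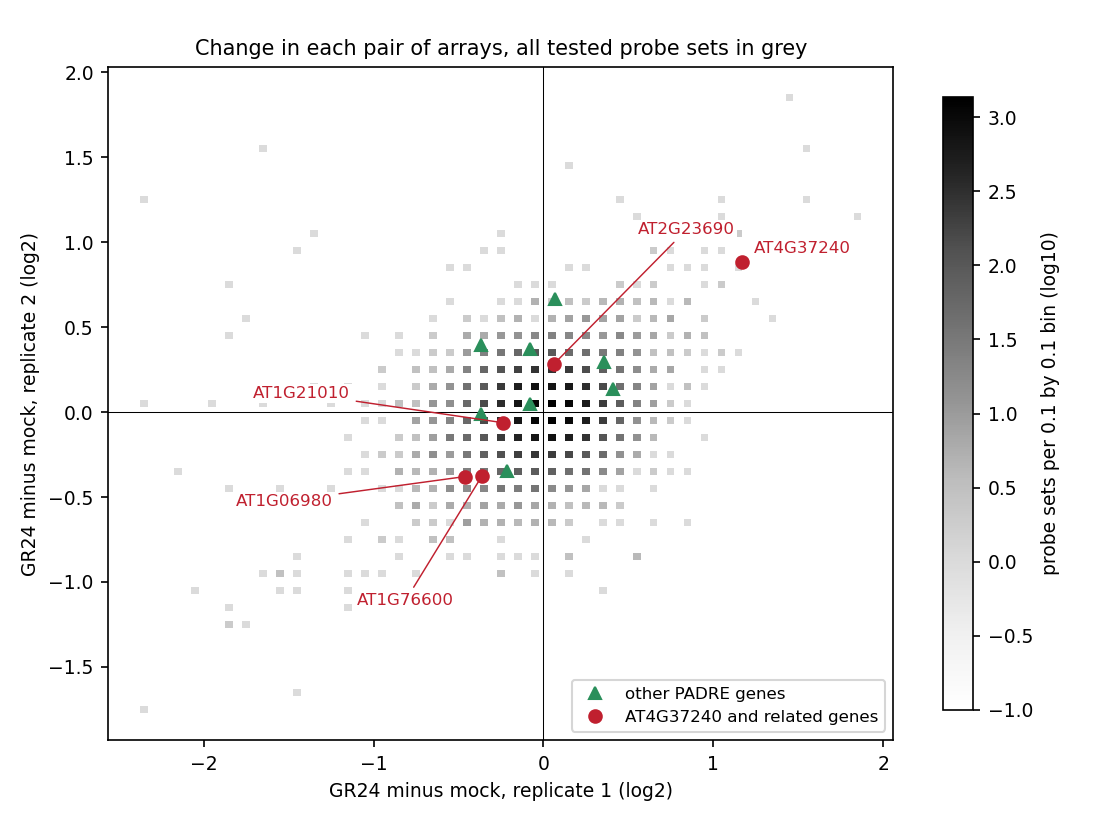
GR24 minus mock difference (log2) within replicate 1 (horizontal axis) and within replicate 2 (vertical axis). Grey squares count all 22746 tested probe sets in bins (log10 colour scale), circles are the 5 measured genes and triangles are 8 other PADRE genes. AT4G37240 lies apart at 1.17 and 0.88, and the other genes lie within the grey cloud.

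A further 13 PADRE genes were listed from general knowledge of the family to show the setting of AT4G37240, and 8 of them had a probe set of their own. Of these 8, 0 passed the paired limma fit for GR24 against mock in either direction, with adjusted p from 0.401 to 0.998, and 0.303% of all probe sets were called. At an unadjusted p under 0.05 there were 4, against 7.47% of all probe sets, and with limma's default prior 0 were called, against 1.24%. Their median difference was 0.08, with 5 above 0 and 3 below.

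AT5G12340 had the widest difference of the 8 at 0.37, but it was uneven, with 0.07 in replicate 1 and 0.66 in replicate 2. AT3G61920 gave 0.36 and 0.29, and its GR24 arrays (4.45 and 4.49) lay above its mock arrays (4.09 and 4.19). AT5G62900 gave 0.41 and 0.14 and also did not overlap between groups. The groups did not overlap for 2 of the 8 genes, near the 23.1% of all probe sets. AT1G28190 lay below mock in both pairs, at -0.22 and -0.35. The signs differed between the pairs for 3 of the 8 genes, AT1G10530, AT3G10120 and AT5G37840. AT1G60010 was at -0.37 in replicate 1 and at -0.01 in replicate 2.

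The profile of AT4G37240 over the 4 arrays was then set against those of 13512 other probe sets with 1 gene. Each profile was centred on its own mean, and likeness was the Euclidean distance in log2 units. The 6 nearest genes were AT5G02890 at 0.161, AT3G16330 at 0.208, AT3G50650 at 0.287, AT5G64550 at 0.313, AT2G34140 at 0.345 and AT5G53710 at 0.357. AT5G02890 encodes an acyltransferase, AT3G50650 a GRAS protein and AT2G34140 a Dof transcription factor. The median distance over all was 1.06, and AT4G37240 lay 1.04 from a flat profile.

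AT5G02890 read 7.74 and 7.80 with mock and 8.71 and 8.63 with GR24. Its second GR24 array was the lower one, as for AT4G37240, AT3G50650, AT2G34140 and AT5G53710. For AT3G16330 and AT5G64550 the second GR24 array was the higher one. AT3G16330 read 6.80 and 6.93 with mock and 7.73 and 7.92 with GR24. All 6 had mean differences with GR24 between 0.68 and 1.00, which follows from how likeness was measured. All profiles come from the same 4 arrays. None of the 6 was in either list of PADRE genes.

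Within the family, AT3G61920 came nearest to AT4G37240, at a distance of 0.708 and rank 101, followed by AT5G62900 at 0.772 and rank 210. AT3G61920 is dim, at percentile 19.3 of brightness over all probe sets. An offset of 16 on the linear values took its GR24 minus mock difference from 0.33 to 0.18. AT2G23690 was at 0.970 with rank 3138. AT1G21010 (1.22), AT1G06980 (1.46) and AT1G76600 (1.68) were farther from AT4G37240 than a flat profile would be. So were 5 of the 8 other PADRE genes, AT1G60010 (1.55), AT1G28190 (1.39), AT1G10530 (1.21), AT3G10120 (1.20) and AT5G37840 (1.09), while AT5G12340 was at 1.03. The median distance over all, 1.06, was also above the 1.04 of a flat profile. Distance counts differences between replicate numbers too, so a large distance need not mean a fall with GR24.

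**Figure D3:**
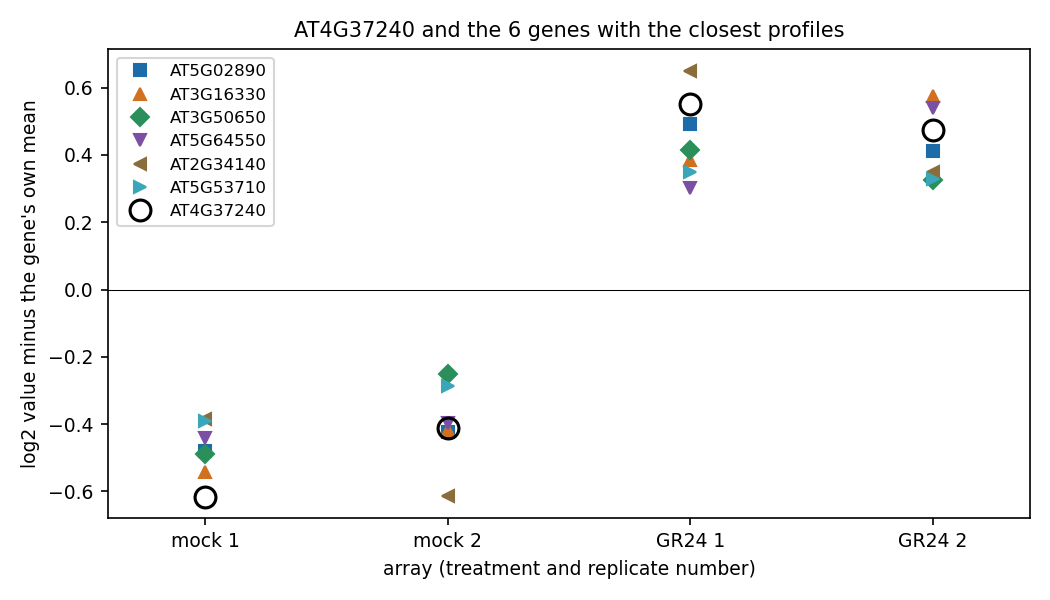
Log2 value minus the gene's own mean over the 4 arrays (vertical axis) on each array (horizontal axis), for AT4G37240 (open circles) and the 6 genes of closest profile (filled symbols). All 7 genes lie below 0 on both mock arrays and above 0 on both GR24 arrays.

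The difference between replicate numbers, with treatment held constant, did not enter the choice of the 5 measured genes and was tested. The lists of other genes tested below were made with earlier results of these data known. If a number stands for a preparation, the difference compares a single preparation with another. The p-values then do not measure how far transcripts vary between separately grown seedlings. Array handling that went along with the number would look the same. AT1G76600 was higher in replicate 2. Its difference between replicate 2 and replicate 1 was 1.00 on the mock arrays and 0.99 on the GR24 arrays, a mean of 0.996 ± 0.10 or 1.99-fold (moderated SE, adjusted p = 0.000998 in the paired limma model). Of the 5 measured genes it was the 1 that passed, and 16.7% of all probe sets passed, with 8.14% higher in replicate 2. The call ended when mock replicate 2 (0.81, adjusted p = 0.146 in limma) or GR24 replicate 2 (1.18, adjusted p = 0.0564) was left out, which leaves a single replicate 2 array.

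AT1G21010 was at 0.22 on the mock and 0.40 on the GR24 arrays, a mean of 0.31 ± 0.10 (moderated SE, adjusted p = 0.0778 in limma). AT2G23690 had the opposite sign, at -0.44 and -0.22, with a mean of -0.33 ± 0.11 (moderated SE, adjusted p = 0.0692 in limma). For both genes the 2 replicate 1 arrays did not overlap with the 2 replicate 2 arrays, as for 58.6% of all probe sets. With limma's default prior, which called 21.8% of all probe sets, AT2G23690 passed (adjusted p = 0.0416) and AT1G21010 did not (adjusted p = 0.0527). AT1G06980 was at 0.18 ± 0.10 (moderated SE, adjusted p = 0.261 in limma).

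AT4G37240 differed little between the replicate numbers, by 0.20 on the mock arrays and -0.08 on the GR24 arrays. The mean of 0.06 ± 0.11 did not pass (moderated SE, adjusted p = 0.760 in limma). A test that misses the threshold does not show equal levels.

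Among the 8 other PADRE genes, 4 differed between replicate numbers, against 16.7% of all probe sets called in either direction. All 4 were lower in replicate 2, against 8.59% of all probe sets called lower. AT1G60010 read 11.00 in replicate 1 and 9.99 in replicate 2 on the mock arrays, and 10.64 and 9.98 on the GR24 arrays. Its mean difference was -0.84 ± 0.12 (moderated SE, adjusted p = 0.00353 in limma). AT3G10120 was at -0.66 ± 0.13 (adjusted p = 0.0116 in limma), AT5G12340 at -0.59 ± 0.14 (adjusted p = 0.0262 in limma) and AT1G28190 at -0.41 ± 0.10 (adjusted p = 0.0295 in limma). The 8 genes had a median difference of -0.38 with 7 below 0, and the median over all probe sets was -0.02. Leaving out single arrays left 0 or 1 of the 4 calls, 0 without mock replicate 2 or GR24 replicate 2 and 1 (AT1G60010) without mock replicate 1 or GR24 replicate 1. Without a term for treatment 2 of the 4 were called, AT1G60010 and AT3G10120.

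**Figure D4:**
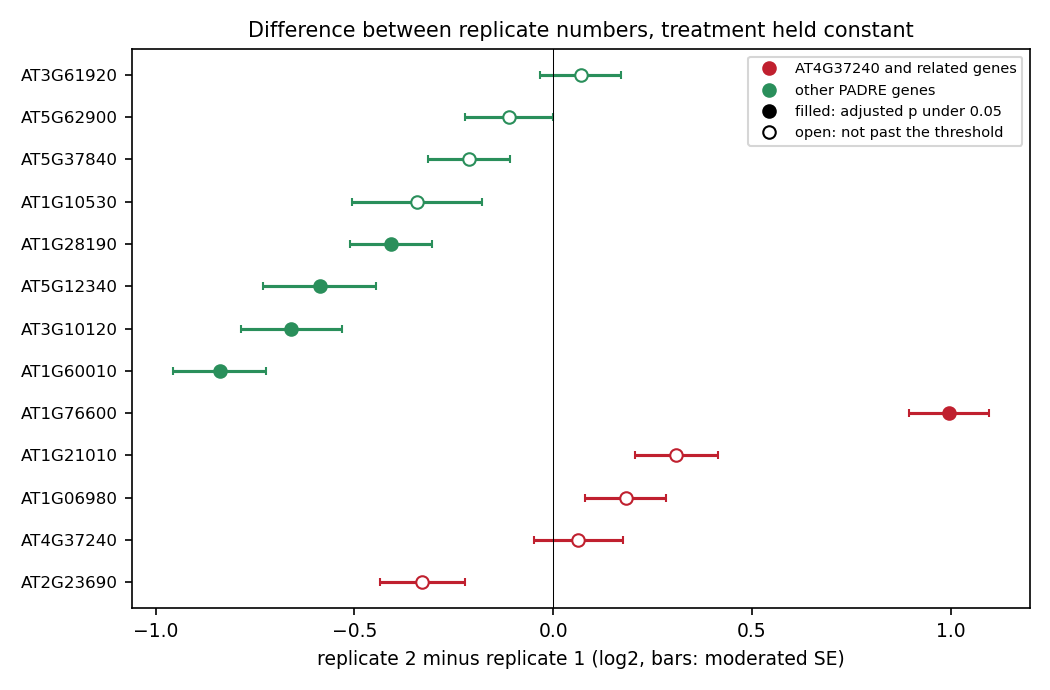
Replicate 2 minus replicate 1 difference (log2, horizontal axis) with treatment held constant, for the 5 measured genes and 8 other PADRE genes (vertical axis). Bars are moderated SE, and filled points have an adjusted p under 0.05. AT1G76600 stands at 0.996 and AT1G60010 at -0.84.

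Genes of early wound, touch and pathogen responses were counted beside the family, since PADRE genes are known to respond to such cues. Of 26 listed genes, 5 had a probe set of their own, and 0 passed for GR24 against mock (adjusted p from 0.470 to 0.998 in the paired limma fit, with 2 at an unadjusted p under 0.05 and 0 with the default prior). The median GR24 minus mock difference of the 5 was 0.04. Most of the list was not measured, so nothing is said of these responses as a whole. Over all probe sets these shares were 0.303% called, 7.47% at an unadjusted p under 0.05 and 1.24% with the default prior. Between replicate numbers 2 of the 5 passed, in opposite directions, against 16.7% of all probe sets. CML37, a calmodulin-like protein, was higher in replicate 2 by 1.22 ± 0.11 (moderated SE, adjusted p = 0.000829 in limma). WRKY53, a transcription factor of senescence and defence, was at -0.69 ± 0.12 (moderated SE, adjusted p = 0.00865 in limma).

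Of the 4 measured tissue markers 1 passed between replicate numbers, against 16.7% of all probe sets. Of 10 root markers 3 were measured, and EXPA7, a root hair expansin, was higher in replicate 2 by 0.67 ± 0.10 (moderated SE, adjusted p = 0.00535 in limma). PYK10 (0.11, adjusted p = 0.494) and AGL42 (0.01, adjusted p = 0.962) did not pass in limma. The summed linear value of the 3 root markers was 8845 to 9158 on the replicate 1 arrays and 9625 to 9874 on the replicate 2 arrays. It was 9158 to 9874 with mock and 8845 to 9625 with GR24. This sum is almost all PYK10, because EXPA7 and AGL42 lay at log2 5.58 or below on every array. Of 10 shoot markers 1 was measured, RCA, at 11002 to 11303 in replicate 1 and 11997 to 12048 in replicate 2 (log2 difference 0.11, adjusted p = 0.516 in limma). The part of tissue makeup in the differences of AT1G76600 and of the 4 other PADRE genes was not tested.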

How the data were processed

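Per the submitters' processing notes, RMA made the deposited log2 values (background correction, equalised distributions, 1 value per probe set), and no version is given in the sources used here. Of 22810 probe sets, 64 controls were left out and 22746 tested without a filter. Names came from the platform's probe table, updated through RefSeq gene identifiers. It gave 13513 probe sets 1 gene and 503 several, and 8730 were not listed. No sequences were used here.

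The model in R 4.3.3 with limma 3.58.1 held treatment and replicate number, with 1 residual degree of freedom. The prior variance was refitted by maximum likelihood (7.62 degrees of freedom, SD 0.107), two-sided p-values were adjusted by Benjamini-Hochberg across the 22746 probe sets, and the threshold was 0.05. Scripts were tested on simulated data. The moderated SE rests mostly on the shared prior. The description gives 2 independent analyses, seedling preparation included. Reading the replicate number as the preparation is an inference, and deviations of same-numbered arrays correlated at 0.712 across probe sets. With 2 arrays per group the number of arrays limits precision, and where cultures within a preparation were not separate, p-values cover the spread between arrays only.

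The named genes are the measured members, the 6 nearest profiles, other PADRE genes called in a contrast or among the 4 widest GR24 differences, and called early response genes. The measured tissue markers are named from their own list, and AT1G10530, AT5G37840 and the neighbouring genes were named after their values were seen. The planned search for relatives by protein sequence was not run, so the 13 other PADRE genes are a hand-made list, unchecked by sequence, added after the table was seen. Members, lists and the refitted prior were chosen with earlier results of these data known.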

Additional observations from a re-analysis of the deposited data

How the results depend on the processing

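The GR24 minus mock difference of AT4G37240 lay between 1.00 and 1.03 under the 7 settings that kept all arrays. They were no replicate block, default prior, trend and robust moderation, repeated quantile normalization, median centring, dimmest 25% left out and offset of 16. Only quantile normalization, median centring and the offset could move the difference. The other settings change its SE and p-value. With single arrays left out the difference lay between 0.92 and 1.13. The count of called probe sets for GR24, 69, became 281 with the default prior, 261 with trend and robust moderation, 24 with the offset, 110 at an adjusted p under 0.1, and 0 with no replicate block or with any array left out. The count of measured members called was 1, and 0 with no replicate block or with any array left out. Between replicate numbers the count of 3805 became 2522 without a treatment term, and 0 to 2654 with single arrays left out. Measured members called there numbered 2 under the default prior, 3 under trend and robust moderation, 3 at the looser threshold of 0.1, and 0 to 1 without single arrays. For the other PADRE genes the count of 4 was 2 without a treatment term and 0 to 1 without single arrays. The difference of AT1G76600 ranged from 0.81 to 1.18 without single arrays and kept its call in all other settings. Fits without 1 array had no pairing and assume that the lone array varies like the other group. The cause of these changes was not tested. In those fits the difference between replicate numbers enters the GR24 difference, which changed sign for AT1G76600 without mock replicate 2 or GR24 replicate 1 (0.13 in both), for AT1G21010 without GR24 replicate 1 (0.05), and for AT2G23690 (-0.05) and AT5G12340 (-0.08) without mock replicate 2. Averaging probe sets of a gene gave no value, because each measured member had 1. No detection calls were used, so dim probe sets have no stated background.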

Other observations

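The chromosomal setting of the genes was examined after the results were seen. Among the 5 protein-coding genes on either side of each measured gene, 26 of 50 had a probe set of their own. For GR24 against mock, 0 of the 26 were called in the paired limma fit, with 5 at an unadjusted p under 0.05 and 2 called with the default prior. Over all probe sets the shares were 0.303%, 7.47% and 1.24%. Their differences ran from -0.55 to 0.55. The 5 measured neighbours of AT4G37240 all lay above 0, from 0.06 to 0.42, against 54.8% of all probe sets above 0. The widest was AT4G37250, the gene directly next to it, at 0.42 (adjusted p = 0.234 in limma). Between replicate numbers 4 of the 26 were called, against 16.7% of all probe sets, 2 of them near AT1G76600. AT1G76590, directly beside AT1G76600, was lower in replicate 2 (-0.51, adjusted p = 0.0155 in limma), opposite in sign to AT1G76600. AT1G76580 was higher (0.44, adjusted p = 0.0345 in limma). AT1G21000, directly beside AT1G21010, was also lower in replicate 2 (-0.51, adjusted p = 0.0147 in limma). AT1G21010 itself was at 0.31 and did not pass. The other called neighbour, AT1G07020 near AT1G06980, was lower too (-0.42, adjusted p = 0.0345 in limma).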
